A study of Mus musculus with 8 samples.

Results

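The report describes 9 genes that mark bipolar cells of the retina: Vsx1, Prkca, Trpm1, Cabp5, Isl1, Pcp2, Nyx, Gng13 and Scgn. All probe sets that the platform annotation assigned to exactly 1 of these symbols were taken, without regard to their values. They were 20 of the 45037 probe sets tested, and 9 of the 18193 genes. For each gene 1 probe set, the one with the highest average signal and here called the brightest, stood for the gene in counts and medians. Total RNA of mouse retina had been measured on Affymetrix expression arrays, with 1 array per sample, to compare genotypes at Nxnl1. Nxnl1 is a photoreceptor gene whose thioredoxin-like product is named rod-derived cone viability factor. The arrays fell into 3 wild-type samples (wt/wt), 2 samples heterozygous for the Nxnl1 null allele (ko/wt) and 3 homozygous null samples (ko/ko). All were labelled as strain BALB/c AJ and came from animals at postnatal day 40, kept under a light and dark cycle, with the retinal pigment epithelium dissected away. The labels do not say what part of Nxnl1 the allele removes, nor whether each array stands for its own animal. The p-values thus rest on the spread from sample to sample, part or all of which may be technical. The design text speaks of 9 arrays, and the ninth was not analysed here.

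Bipolar cells carry the signals of rods and cones from the outer to the inner retina. Rod bipolar cells and ON cone bipolar cells sense photoreceptor glutamate through the receptor mGluR6, whose G protein closes the cation channel TRPM1 in darkness and lets it open in light. OFF bipolar cells use ionotropic glutamate receptors instead. In mice, loss of Nyx or Trpm1 removes the ON bipolar response from the electroretinogram. Each bipolar subtype has its own combination of transcription factors and calcium-binding proteins, which is why several of the 9 genes serve as subtype markers.

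Bipolar genes are known targets of the homeodomain factors OTX2 and CRX, which recognise the core TAATCC. The 250 bases before each RefSeq gene start (assembly GRCm38.p6) were searched for it on both strands (TAATCC or GGATTA). It was found for 3 of the 9 genes, Cabp5, Trpm1 and Isl1, and in 3 of the 14 start windows of the 9 genes. Among all windows of that length 6.25% of 32851 held it, or 7.21% of 27025 genes with any window. The windows of these 3 genes are shown 5′ to 3′ on the strand of the gene, with each match in capitals, because they hold the only matches among the 9 genes. The Cabp5 window is chr7:13397905-13398154 (plus strand), that of Trpm1 is chr7:64153585-64153834 (plus strand) and that of Isl1 is chr13:116309689-116309938 (minus strand).
Cabp5: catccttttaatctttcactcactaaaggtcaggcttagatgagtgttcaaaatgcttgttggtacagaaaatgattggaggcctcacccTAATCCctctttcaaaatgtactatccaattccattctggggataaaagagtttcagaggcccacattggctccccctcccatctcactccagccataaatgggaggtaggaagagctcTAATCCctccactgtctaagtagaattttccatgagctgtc
Trpm1: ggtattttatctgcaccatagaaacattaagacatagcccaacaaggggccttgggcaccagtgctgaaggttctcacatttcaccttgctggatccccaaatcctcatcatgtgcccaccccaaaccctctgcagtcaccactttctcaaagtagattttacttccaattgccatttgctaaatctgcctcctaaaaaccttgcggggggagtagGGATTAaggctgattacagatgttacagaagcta
Isl1: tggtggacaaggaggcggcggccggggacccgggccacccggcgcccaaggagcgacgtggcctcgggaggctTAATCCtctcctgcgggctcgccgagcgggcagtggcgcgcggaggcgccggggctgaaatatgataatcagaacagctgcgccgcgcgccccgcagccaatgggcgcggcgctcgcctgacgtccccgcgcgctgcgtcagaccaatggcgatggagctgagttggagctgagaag
The Cabp5 matches began 160 and 41 bases before the start, the Trpm1 match 34 bases before it and the Isl1 match 177 bases before it. A general homeodomain core, TAATTA, which reads alike on both strands and cannot overlap TAATCC by more than a few letters, was found for Pcp2 only, against 5.65% of all genes with a window. A match is a run of letters and not a measured binding site.

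Values are log2 expression as deposited, so 1 unit is a doubling. The array medians ran from 6.11 to 6.21, and pairs of arrays correlated at 0.979 to 0.996 over all probe sets. Nxnl1 went against the label on 2 arrays. It read 8.65 to 9.22 on the wild-type arrays and 6.13 on those labelled homozygous 1 and 3, but 8.76 on the array labelled homozygous 2. The heterozygous labels gave 8.65 (array 1) and 6.75 (array 2). Each group difference below therefore refers to the labels, and the main results are also given without the arrays labelled heterozygous 2 and homozygous 2. Arrays also differed in RNA quality, read as the signal of the 5′ minus the 3′ control probe set for actin: it was -1.81 on wild-type array 1, -1.74 on the array labelled homozygous 1 and between -1.26 and -0.69 on the other 6.

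None of the 9 bipolar genes differed between the homozygous and wild-type labels by limma's moderated test after Benjamini-Hochberg adjustment over all probe sets (smallest adjusted p = 0.9999). No probe set of any gene was called either: 0% of 45037 passed the adjusted threshold of 0.05, while 411, or 0.913%, had an unadjusted p below 0.05 (819 by an ordinary test without moderation). Even Nxnl1, the gene of the null allele, was not called. It differed by -1.91 (SE 0.73, unadjusted p = 0.0308 and adjusted p = 0.9999 by limma), and by -2.78 without the arrays labelled heterozygous 2 and homozygous 2. Among the members 0 of 9 genes had an unadjusted p below 0.05, against 0.841% of all genes. The brightest probe sets lay above wild type for 7 of 9 genes, with a median log2 difference of 0.04. Over all 18193 genes 60.5% lay above, with a median of 0.02. The 95% intervals of the 9 folds together ran from 0.736 to 1.42, so the data leave room for changes up to those sizes. The homozygous and wild-type arrays did not overlap for 1 of 9 genes, Cabp5, against 4.83% of all genes. Of the 20 probe sets 13 lay above wild type and 1 did not overlap, against 52.1% and 4.47% of all probe sets. In whole retina, a change in the number of bipolar cells and a change in RNA per bipolar cell cannot be told apart.

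**Figure D1:**
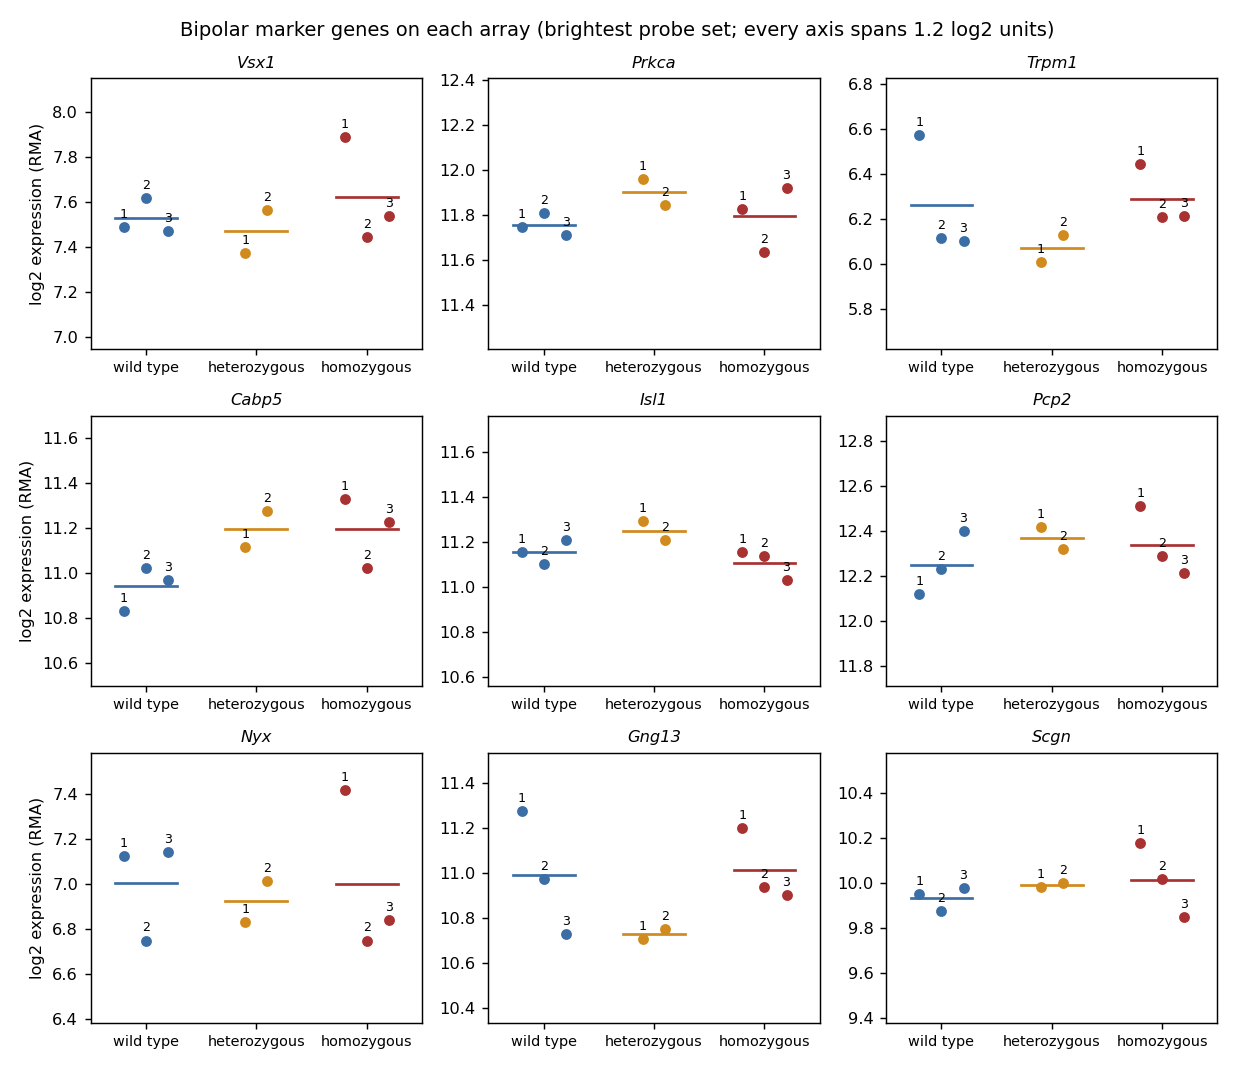
Log2 value of the brightest probe set of each bipolar gene (vertical axis, spanning 1.2 log2 units in every panel) on each of the 8 arrays, grouped by genotype label. Points are single arrays and bars are group means; Cabp5 is the only panel in which the 3 homozygous points all lie above the 3 wild-type points, the closest pair both at 11.02.

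Trpm1, the cation channel that carries the ON bipolar light response, read 6.57, 6.12 and 6.10 with the wild-type label, 6.01 and 6.13 with the heterozygous label, and 6.45, 6.21 and 6.22 with the homozygous label on probe set 1437445_at. Wild-type array 1 was the highest and the groups overlapped. These values lay around the array medians of 6.11 to 6.21, and detection calls were not used. The means were 6.26 ± 0.27 (SD, n = 3) for wild type and 6.29 ± 0.13 (SD, n = 3) for the homozygous label, which put the difference at 0.03 (SE 0.15; 95% interval -0.31 to 0.36). Nyx, which encodes nyctalopin, a surface protein of ON bipolar dendrites needed to place TRPM1, read 7.12, 6.75 and 7.14 with the wild-type label, 6.83 and 7.01 with the heterozygous label, and 7.42, 6.75 and 6.84 with the homozygous label. The homozygous arrays held both the highest value and the joint lowest. The homozygous difference was -0.0040 (SE 0.19; 95% interval -0.44 to 0.43), the widest interval of the 9.

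Gng13, the G protein gamma subunit that ON bipolar cells use, read 11.27, 10.97 and 10.73 with the wild-type label, 10.71 and 10.75 with the heterozygous label, and 11.20, 10.94 and 10.90 with the homozygous label. The 2 highest values came from wild-type array 1 and the array labelled homozygous 1, which also had the lowest actin difference. The homozygous and wild-type means differed by 0.02 (SE 0.15; 95% interval -0.32 to 0.36). Prkca encodes protein kinase C alpha, the standard label of rod bipolar cells. It read 11.75, 11.81 and 11.71 with the wild-type label, 11.96 and 11.84 with the heterozygous label, and 11.83, 11.63 and 11.92 with the homozygous label. The homozygous arrays spanned the whole wild-type range, with a difference of 0.04 (SE 0.10; 95% interval -0.20 to 0.27). Pcp2, a regulator of G protein signalling also found in Purkinje cells, marks rod and ON cone bipolar cells. It read 12.12, 12.23 and 12.40 with the wild-type label, 12.42 and 12.32 with the heterozygous label, and 12.51, 12.29 and 12.21 with the homozygous label. The difference was 0.09 (SE 0.12; 95% interval -0.18 to 0.35), within overlapping groups. Pcp2 lies on chromosome 8, like Nxnl1.

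Cabp5 encodes a calmodulin-like calcium-binding protein of rod bipolar cells and some cone bipolar cells. On its brightest probe set, 1451826_at, it read 10.83, 11.02 and 10.97 with the wild-type label, 11.12 and 11.27 with the heterozygous label, and 11.33, 11.02 and 11.23 with the homozygous label. Every homozygous and heterozygous array lay above every wild-type array, although the array labelled homozygous 2 and wild-type array 2 both rounded to 11.02. The homozygous mean was 11.19 ± 0.16 (SD, n = 3) against 10.94 ± 0.10 (SD, n = 3), a log2 difference of 0.25 (SE 0.11; 95% interval -0.0037 to 0.51) or a fold of 1.19. The unadjusted p by limma was 0.0527, the smallest of the 9 genes, and the adjusted p was 0.9999. With the arrays labelled heterozygous 2 and homozygous 2 left out, Cabp5 differed by 0.34 (SE 0.11; 95% interval 0.06 to 0.61), with an unadjusted p of 0.0238 and an adjusted p of 0.976. That was 1 of 9 genes with an unadjusted p below 0.05, against 2.41% of all genes in that fit. Without wild-type array 1 and the array labelled homozygous 1, which had the lowest actin differences, it was 0.13 (unadjusted p = 0.334). Scgn encodes secretagogin, a calcium-binding protein of several cone bipolar types. It read 9.95, 9.88 and 9.98 with the wild-type label, 9.98 and 10.00 with the heterozygous label, and 10.18, 10.01 and 9.85 with the homozygous label. The homozygous arrays reached beyond the wild-type range on both sides, with a difference of 0.08 (SE 0.10; 95% interval -0.16 to 0.32).

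Vsx1 is a homeobox transcription factor of OFF and some ON cone bipolar cells. It read 7.49, 7.62 and 7.47 with the wild-type label, 7.37 and 7.56 with the heterozygous label, and 7.89, 7.45 and 7.53 with the homozygous label. The array labelled homozygous 1 stood above the other 7, which shared a range of 7.37 to 7.62. The homozygous difference was 0.10 (SE 0.13; 95% interval -0.21 to 0.40). Isl1, a LIM homeobox factor of ON bipolar cells that ganglion and cholinergic amacrine cells also express, was the least variable of the 9 over the arrays. It read 11.16, 11.10 and 11.21 with the wild-type label, 11.29 and 11.21 with the heterozygous label, and 11.16, 11.14 and 11.03 with the homozygous label. Its homozygous difference was -0.05 (SE 0.09; 95% interval -0.25 to 0.15).

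**Figure D2:**
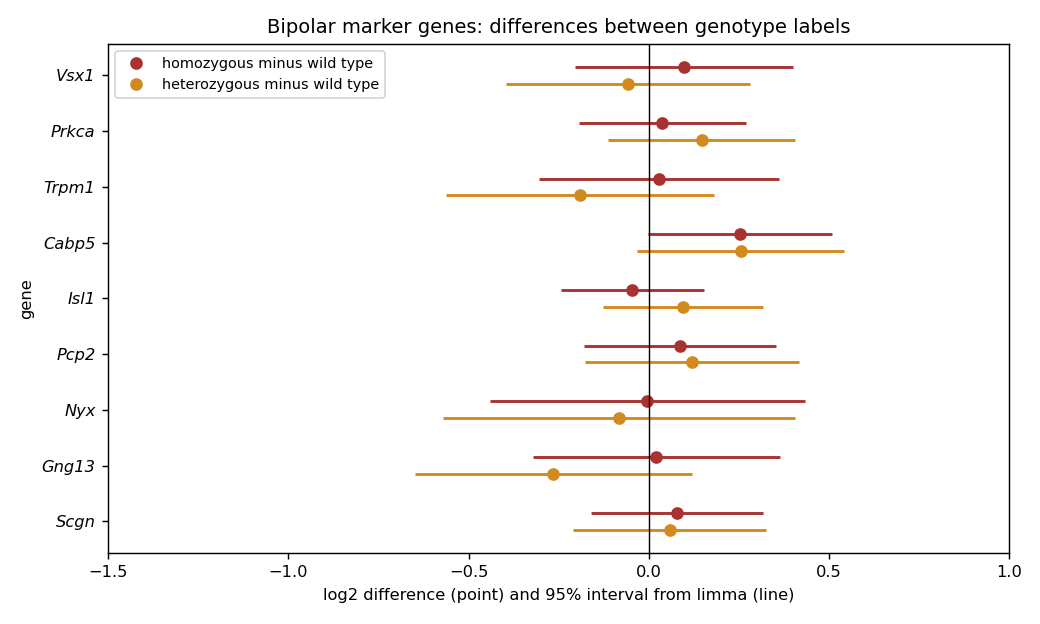
Log2 difference of each bipolar gene (vertical axis) for homozygous minus wild type and heterozygous minus wild type, on the brightest probe set; points are estimates and lines their 95% intervals from limma. All 18 intervals cross 0, and the Cabp5 estimates of 0.25 in both comparisons lie farthest to the right.

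The heterozygous comparison used the same wild-type arrays, so it is not independent of the homozygous one. No member was called (adjusted p = 0.9999 for all 9 by limma), and 0 of 9 genes had an unadjusted p below 0.05, against 1.17% of all genes. Of all 45037 probe sets 0 were called (0%) and 516 had an unadjusted p below 0.05 (936 by the ordinary test). The difference was above 0 for 5 of 9 genes, with a median of 0.06, against 47.6% of all genes. Cabp5 was again the farthest above wild type, by 0.25 (SE 0.12; 95% interval -0.03 to 0.54), and Gng13 the farthest below, at -0.26 (SE 0.17; 95% interval -0.65 to 0.12). The heterozygous and wild-type arrays did not overlap for 3 of 9 genes, Prkca, Cabp5 and Scgn, against 15% of all genes with only 2 heterozygous arrays. Prkca differed by 0.15 (SE 0.11; 95% interval -0.11 to 0.41) and Scgn by 0.06 (SE 0.12; 95% interval -0.21 to 0.33). The intervals of the 9 folds together ran from 0.638 to 1.45. Of the 20 probe sets 4 did not overlap, against 14.2% of all probe sets.

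Only 1 of the 20 probe sets had an unadjusted p below 0.05 in the heterozygous comparison, against 1.15% of all probe sets. It was the second Trpm1 probe set, 1418935_at, which read 6.58, 6.31 and 6.19 with the wild-type label, 5.91 and 5.86 with the heterozygous label, and 6.35, 6.18 and 6.30 with the homozygous label. Both heterozygous arrays were lower than all 6 others. The values of this probe set also lay around the array medians of 6.11 to 6.21. The heterozygous difference was -0.48 (SE 0.13; 95% interval -0.78 to -0.18), a fold of 0.719, with an unadjusted p of 0.00634 and an adjusted p of 0.9999 by limma. The homozygous group lay 0.39 above the heterozygous one on this probe set (unadjusted p = 0.0169, adjusted p above 0.9999). The other 3 Trpm1 probe sets had heterozygous differences of -0.19, -0.03 and -0.05. With the arrays labelled heterozygous 2 and homozygous 2 left out, 1418935_at gave -0.45, but only 1 heterozygous array then remained and the other groups alone gave the spread. Without the arrays of lowest actin difference it was -0.37 (unadjusted p = 0.0141).

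Between the homozygous and heterozygous labels 5 of 9 genes lay above 0, with a median of 0.02 and a range of -0.14 to 0.29, against 63.7% of all genes. No member was called by limma, and 0% of all probe sets were (405, or 0.899%, had an unadjusted p below 0.05, 858 by the ordinary test). An unadjusted p below 0.05 was found for 0 of 9 genes, against 0.808% of all genes. Trpm1 (0.22), Isl1 (-0.14) and Gng13 (0.29) had arrays that did not overlap, which is 3 of 9 genes against 11% of all genes. The Gng13 difference had the smallest unadjusted p of the 9, 0.125. Of the 20 probe sets 6 did not overlap, against 12.4% of all probe sets.

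The probe sets of 1 gene did not always follow each other over the arrays. Among 7 genes with more than 1 probe set, 11 of the 16 pairs within a gene correlated above 0 over the 8 arrays, with a median r of 0.24. The 2 brighter Pcp2 probe sets correlated at 0.926, and the Isl1 pair at 0.781. The Cabp5 pair correlated at 0.322, the Vsx1 pair at -0.147 and the brightest and dimmest Prkca probe sets at -0.189. The second Cabp5 probe set, 1421780_a_at, read 8.68, 9.66 and 10.04 with the wild-type label, 9.87 and 10.18 with the heterozygous label, and 9.31, 10.05 and 9.60 with the homozygous label. Its values spread over a wider range than those of 1451826_at, and the groups overlapped in both comparisons with wild type.

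Actin difference and member signal were therefore compared over the 8 arrays, by exact two-sided permutation tests of Pearson's r. For the 9 brightest probe sets 0 of 9 adjusted p-values (Benjamini-Hochberg over 9) were below 0.05. The strongest relations were those of Gng13 (r = -0.878, exact p = 0.00747, adjusted p = 0.0530; Spearman's rho = -0.619, exact p = 0.115) and Trpm1 (r = -0.873, exact p = 0.0118, adjusted p = 0.0530; rho = -0.595, exact p = 0.132). Both rested on wild-type array 1 and the array labelled homozygous 1: without them r was -0.385 and -0.179. Scgn moved the other way, from r = -0.222 over 8 arrays to 0.954 over the 6 that were left (exact p = 0.00417, adjusted p = 0.0375).

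Over all 20 probe sets, a set of relations chosen after the data had been seen, 5 had an adjusted p below 0.05. The relation was computed for member probe sets only, so no share of all probe sets stands beside the counts here and above. Whether it is particular to these probe sets was not tested. For Cabp5 1421780_a_at r was 0.945 (exact p = 7.44e-05, adjusted p = 0.00149; rho = 0.976, exact p = 0.000397), and 0.952 without the same 2 arrays (exact p = 0.00417, adjusted p = 0.0417). Prkca 1427562_a_at had r = 0.872 (exact p = 0.00141, adjusted p = 0.0141; rho = 0.905, exact p = 0.00456), and r = 0.665 without the 2 arrays. Pcp2 1424944_at had r = 0.925 (exact p = 0.00414, adjusted p = 0.0276; rho = 0.810, exact p = 0.0218), and 0.583 without them. The other 2 were the Gng13 and Trpm1 probe sets above, of opposite sign. The brightest probe sets of the same genes had r = 0.0346 for Cabp5, -0.123 for Prkca and 0.155 for Pcp2. The middle probe sets had r = -0.205 for Prkca (1450945_at, adjusted p = 0.709 by the exact permutation test) and 0.420 for Pcp2 (1419084_a_at, adjusted p = 0.499). With the actin difference as a covariate in limma, the homozygous minus wild-type difference of Cabp5 was 0.25 (SE 0.11; unadjusted p = 0.0507). The heterozygous minus wild-type difference was -0.05 (SE 0.13) for Trpm1 and -0.12 (SE 0.13) for Gng13, nearer to 0 than without the covariate, and no member was called in either comparison.

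**Figure D3:**
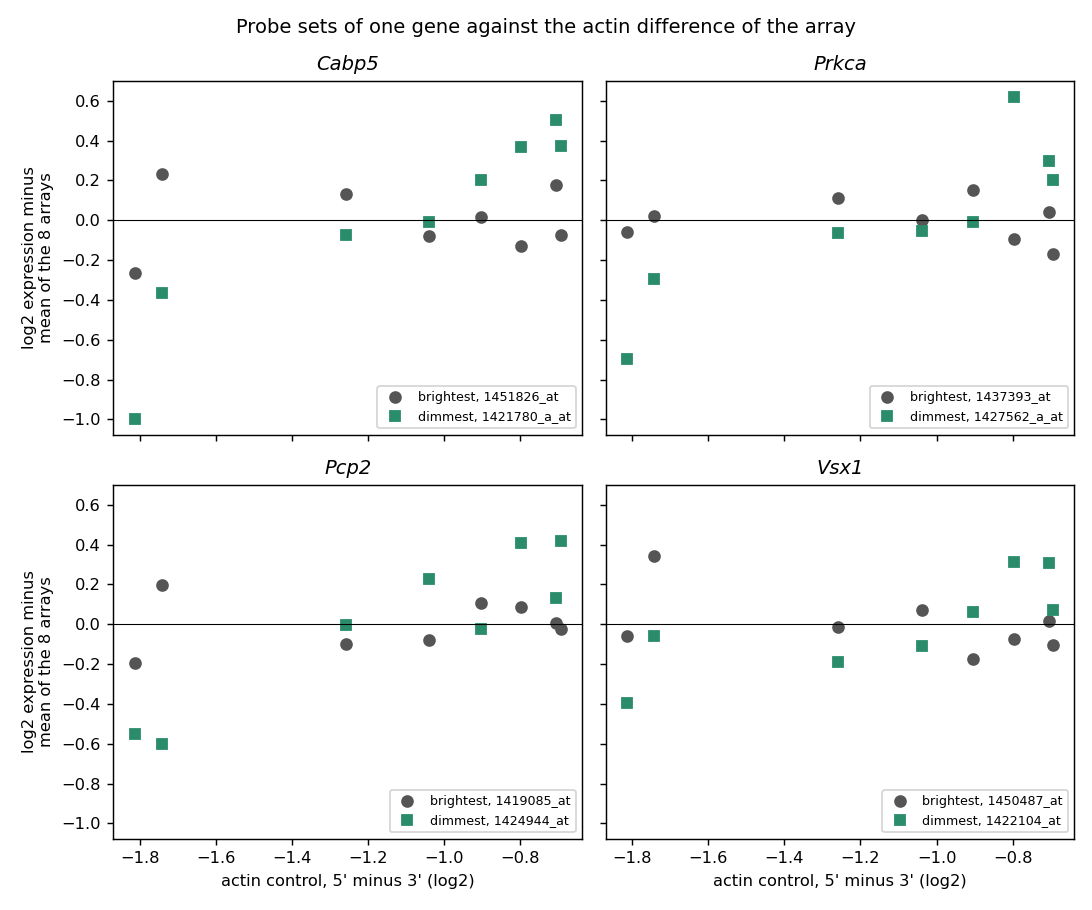
Log2 value of each array minus the mean over arrays (vertical axis) against the 5′ minus 3′ actin difference (horizontal axis, log2) for the brightest and the dimmest probe set of 4 bipolar genes; each point is 1 array. The dimmest Cabp5 probe set rises with the actin difference (r = 0.945) while the brightest one does not (r = 0.0346).

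A single array carried much of the upward shift of the homozygous group. The array labelled homozygous 1 was the highest of the 8 for 5 of 9 genes (Vsx1, Cabp5, Pcp2, Nyx and Scgn), or 55.6%, against 34.7% of all genes. The mean of the 9 genes, each centred on its own mean, was 0.21 on that array and lay between -0.07 and 0.02 on the other 7. Without it 2 of 9 genes lay above wild type, against 46.1% of all genes, with a median of -0.04. Cabp5 then differed by 0.18 (unadjusted p = 0.157 by limma) and Nyx by -0.21. With the arrays labelled heterozygous 2 and homozygous 2 left out instead, 8 of 9 genes lay above wild type, against 63% of all genes, with a median of 0.11. Without wild-type array 1 and the array labelled homozygous 1 the count was 5 of 9, against 55% of all genes, with a median of 0.0048.

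Markers of some other tissues and cell types were also highest on that array, while others were not. The mean of 8 lens genes was 8.85 on the array labelled homozygous 1 and 5.29 to 7.82 on the other 7, with spans of 5.46 to 7.78 (wild type), 5.60 to 7.82 (heterozygous) and 5.29 to 8.85 (homozygous). All 8 lens genes lay above wild type in the homozygous group, with a median of 0.83. Cryaa, the lens alpha-crystallin, read 11.72 there and 5.45 to 10.44 elsewhere. The mean of 6 vascular genes was 6.88 on that array and 6.32 to 6.63 on the others, that of 9 amacrine genes 9.36 against 8.95 to 9.17, and that of 7 ganglion cell genes 10.01 against 9.29 to 9.81. Rod genes stayed between 13.56 and 13.72 on all 8 arrays, and Müller glia genes between 11.21 and 11.29. Pigment epithelium genes averaged 7.97 on the array labelled homozygous 1 against 8.12 on wild-type array 1, and blood genes 4.16 against 4.35. Horizontal cell genes averaged 7.87 against 7.93 on wild-type array 1, and microglia genes 6.65 against 6.66 on the array labelled heterozygous 2. Cone genes averaged 9.95 against 10.15 on the array labelled homozygous 2. The part of lens or inner retinal cells in the bipolar values was not tested.

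**Figure D4:**
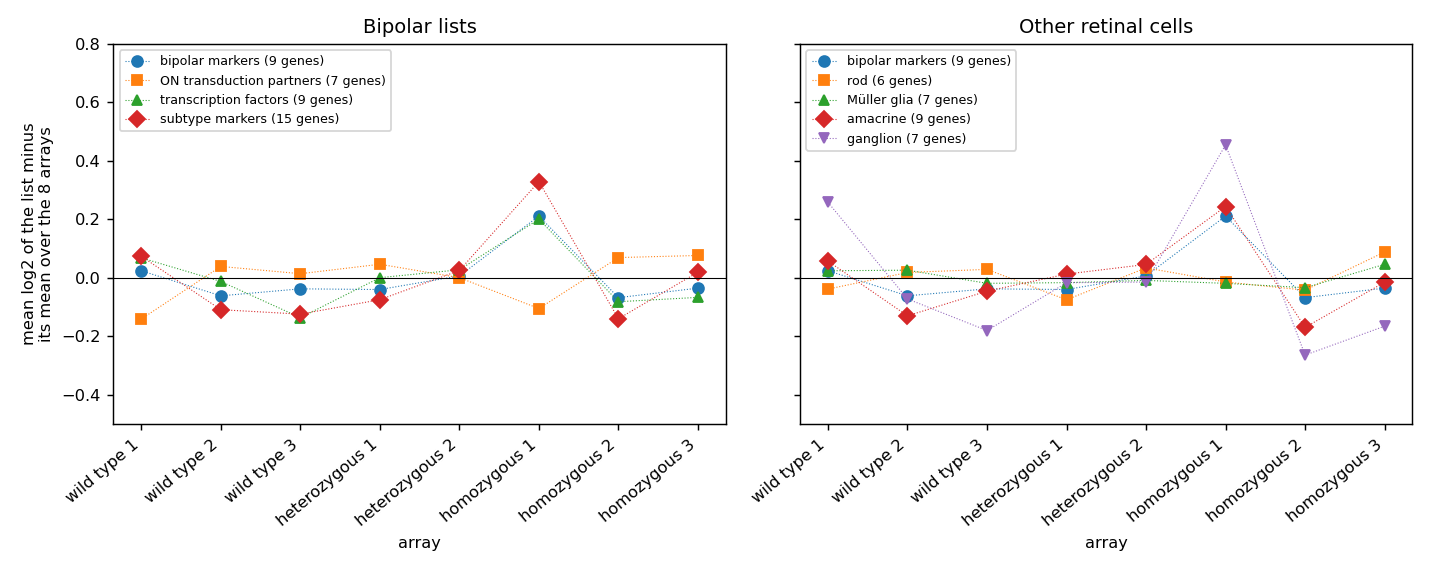
Mean log2 level of each gene list on each array minus its mean over the 8 arrays (vertical axis), for bipolar lists and for other retinal cell types; the horizontal axis names the arrays and each line is 1 list. The lists of bipolar markers, transcription factors and subtype markers peak on the array labelled homozygous 1, at means of 9.99, 8.98 and 7.51. The amacrine and ganglion lists peak there too, at 9.36 and 10.01. The ON cascade, rod and Müller glia lists do not, at 10.31, 13.62 and 11.23.

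The other genes of the ON cascade were taken from a fixed list of 9, of which Grm6 (the receptor mGluR6 itself) and Lrit3 were not analysed here. Of the 7 measured, 0 were called, 4 lay above wild type in the homozygous group, against 60.5% of all genes, with a median of 0.02. Gnao1, the alpha subunit that mGluR6 activates, differed by 0.02 (SE 0.15), and its beta partner Gnb3 by 0.14 (SE 0.14). Rgs7 and Rgs11, which switch that G protein off, differed by 0.14 (SE 0.09) and -0.01 (SE 0.15). Gnb5, their obligate partner, differed by 0.11 (SE 0.13). Gpr179, the ON bipolar receptor that anchors these regulators, differed by -0.02 (SE 0.13), and Rgs9bp, the photoreceptor anchor of RGS9 that cannot be assigned to bipolar cells alone, by -0.07 (SE 0.11). Rgs7 was the only one of the 7 without overlap between groups, at 9.35, 9.41 and 9.37 against 9.49, 9.57 and 9.48 for homozygous (unadjusted p = 0.180 by limma); 1 of 7 compares with 4.83% of all genes. In the heterozygous comparison 4 of 7 lay above 0, against 47.6% of all genes. Gnb5 (0.24, SE 0.14) was the only one of the 7 without overlap, against 15% of all genes. The array labelled homozygous 1 was the highest for 0 of these 7 genes, against 34.7% of all genes. Without it 6 of 7 lay above wild type, against 46.1% of all genes, with a median of 0.09.

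Bipolar transcription factors showed no call either: of 9 measured, 6 lay above wild type in the homozygous group, against 60.5% of all genes, with a median of 0.04. Irx6, an Iroquois factor of some OFF bipolar cells, had the smallest unadjusted p, with a difference of 0.18 (SE 0.13). Otx2, which photoreceptors and bipolar cells both need for their development, differed by -0.10 (SE 0.10) and read 11.47 to 11.77 over the 8 arrays. Sebox differed by 0.15 (SE 0.16) and Prdm8, a repressor needed for rod bipolar and some OFF bipolar cells, by 0.07 (SE 0.13). The array labelled homozygous 1 was the highest for 6 of these 9 genes, against 34.7% of all genes. Without it 2 of 9 lay above wild type, against 46.1% of all genes.

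Subtype markers lay above wild type for 12 of 15 measured genes (Igfn1 was not analysed here), against 60.5% of all genes, with a median of 0.13, and 0 were called. Grik1, a kainate receptor subunit of OFF bipolar cells, was the only one of the 15 with an unadjusted p below 0.05 by limma (0.0174, adjusted p = 0.9999), against 0.841% of all genes. It read 4.87, 4.70 and 4.61 with the wild-type label, 4.74 and 5.02 with the heterozygous label, and 5.62, 4.89 and 5.28 with the homozygous label. All 8 values lay below the array medians of 6.11 to 6.21, and detection calls were not used, so the signal may be near background. The homozygous arrays lay above the wild-type ones, which is 1 of 15 genes without overlap against 4.83% of all genes. The lowest of the homozygous arrays was the one labelled homozygous 2. The difference was 0.54 (SE 0.18; 95% interval 0.12 to 0.96), and 0.73 (SE 0.15) without the arrays labelled heterozygous 2 and homozygous 2. It was 0.36 (unadjusted p = 0.0484) without the array labelled homozygous 1, and 0.44 (unadjusted p = 0.0281) without the arrays of lowest actin difference. Car10, a carbonic anhydrase-related protein, differed by 0.31 (SE 0.17). The calcium-binding proteins Cabp1 and Cabp2, relatives of Cabp5, each differed by 0.18 (SE 0.11). The array labelled homozygous 1 was the highest for 12 of these 15 genes, 80%, against 34.7% of all genes. Without it 6 of 15 lay above wild type, against 46.1% of all genes.

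Over the 8 arrays the 9 bipolar genes followed each other in part. Of the 36 pairs of brightest probe sets 24 correlated above 0, with a median r of 0.29 and a range of -0.42 to 0.94. Trpm1 and Gng13, both of the ON cascade, had the highest r, 0.935, followed by Pcp2 with Scgn (0.738) and Nyx with Scgn (0.705). These arrays share the differences in actin signal and the single high array described above, so the values are a description with no test. Outside all lists, the 5 genes most like the mean of the 9 over the 8 arrays, among 3699 genes with an SD of at least 0.2, were Asns (r = 0.987), Septin6 (0.984), Rgs16 (0.982), Gpr137b-ps (0.978) and Ifi35 (0.977). All 5 were highest on the array labelled homozygous 1, where Asns, asparagine synthetase, read 9.03 against 8.28 to 8.61 elsewhere.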

How the data were processed

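Total RNA of 8 retina samples was measured, 1 array each. Its deposited values are log2 expression, 1 per probe set and array, from RMA run by the authors per the submitters' processing notes; no version is stated there. Quantile normalization in RMA makes each value relative to the bulk of transcripts. Of 45101 probe sets 64 controls were left out. The platform annotation gave 34945 of the rest 1 symbol, 932 several and 9160 none; 34741 were updated to RefSeq symbols, and none was named from several. Precision is limited by the number of arrays. Detection calls were not used.

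Group means were fitted to all 8 arrays with limma 3.58.1 in R 4.3.3 (5 residual degrees of freedom), with eBayes moderation, two-sided tests and Benjamini-Hochberg adjustment over 45037 probe sets. Figures and permutation tests used Python 3.11.15. The fit was tested on simulated data with known changes in the homozygous group. With all arrays, 10% of changes of 0.5 log2 units and 72% of changes of 1 unit were called. With the arrays labelled heterozygous 2 and homozygous 2 left out, these shares were 0% and 50%. Changes of the size seen for the members would thus mostly be missed. Members and lists were chosen with earlier results of these data known. Named were all members, all measured cascade genes, up to 4 genes of each other bipolar list by smallest unadjusted p, 5 genes by likeness, and Nxnl1. Further values of the cone, horizontal, pigment epithelium, microglia and blood lists are given in the closing section. Alternatives covered normalization, filter, variance model, array weights, replicate block, left-out arrays, actin covariate and averaging of probe sets.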

Additional observations from a re-analysis of the deposited data

How the results depend on the processing

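No member of the 9 was called under any of the settings tried. The count of called probe sets over 21 settings was 0 to 1 for homozygous minus wild type, 0 to 1 for heterozygous minus wild type and 0 for homozygous minus heterozygous. The single call came without wild-type replicate 3 (adjusted p by limma 0.0118 and 0.0195) on 1426438_at, a probe set with no symbol in the annotation used. It read 2.96, 2.90 and 9.24 in wild type and 8.84 to 9.87 on the heterozygous and homozygous arrays. Wild-type arrays 1 and 2 thus stood apart from all others on this probe set, and the cause was not tested. Unadjusted counts ran from 31 to 5673, 51 to 3643 and 31 to 2434. For homozygous minus wild type 8 of 117 values of the 9 genes changed sign under settings that did not drop a single array. They were Vsx1 with array weights (-0.042) or without the 2 arrays of lowest actin difference (-0.055), Pcp2 without those 2 arrays (-0.065), Nyx with equal array medians (0.0074), array weights (0.078) or without the 2 arrays against their label (0.12), and Gng13 with array weights (-0.042) or the mean of all probe sets (-0.021). For heterozygous minus wild type 4 of 117 did: Vsx1 with the actin covariate (0.013) or the mean of all probe sets (0.10), and Nyx with array weights (0.12) or the actin covariate (0.056). Leaving out each array in turn gave homozygous minus wild type ranges of -0.036 to 0.19 for Vsx1, -0.025 to 0.12 for Prkca, -0.054 to 0.18 for Trpm1, 0.18 to 0.34 for Cabp5, -0.07 to -0.0076 for Isl1, -3.8e-05 to 0.16 for Pcp2, -0.21 to 0.12 for Nyx, -0.11 to 0.16 for Gng13, -0.0036 to 0.16 for Scgn and -2.78 to -1.47 for Nxnl1. For heterozygous minus wild type the ranges were -0.15 to 0.039 for Vsx1 and -0.21 to 0.0089 for Nyx. Without the 2 arrays farthest from the median actin difference the relation to it turned for Cabp5 (r = -0.228), Nyx (0.339) and Scgn (0.954), and 1 of 9 relations passed. Relations over all 20 member probe sets gave 5 that passed, with no share of all probe sets to set beside it. The cause of these changes was not tested.

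The deviations of wild-type and homozygous arrays with the same replicate number correlated at 0.616, 0.230 and -0.035 for numbers 1, 2 and 3. Pairs with unlike numbers correlated at -0.642 to 0.519. So few correlations cannot show whether the numbers pair the samples. With the replicate block 0 probe sets were called in each comparison, Cabp5 differed by 0.25 (unadjusted p = 0.0913 by limma), and no member call changed.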

Other observations

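The remaining cell type lists gave these values, with no gene called by limma in homozygous minus wild type. The mean of 8 pigment epithelium genes was 7.59 to 8.12 in wild type, 7.38 to 7.50 in the heterozygous group and 7.47 to 7.97 in the homozygous group, although that tissue had been dissected away. Rpe65, its retinoid isomerase, read 9.69 to 10.48 (wild type), 9.25 and 9.52 (heterozygous) and 9.16 to 10.04 (homozygous). In heterozygous minus wild type 1 of these 8 genes lay above 0, against 47.6% of all genes, with a median of -0.60. An unadjusted p below 0.05 by limma was found for 3 of 8 (smallest 0.00988), against 1.17% of all genes. The arrays did not overlap for 4 of 8, against 15% of all genes, and 0 were called. The mean of 6 microglia genes was 6.09 to 6.41 (wild type), 6.31 and 6.66 (heterozygous) and 6.27 to 6.65 (homozygous). All 6 lay above wild type in both comparisons, against 60.5% of all genes for homozygous and 47.6% for heterozygous, and 1 of 6 had an unadjusted p below 0.05 by limma for heterozygous (0.0369; 1.17% of all genes). Cone genes ran from 9.89 to 10.15, horizontal cell genes from 7.65 to 7.93 and blood genes from 3.88 to 4.35 over the 8 arrays.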
